A study of Mus musculus with 9 samples.

Results

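The subject here is the set of enzymes that build triglyceride from glycerol 3-phosphate, followed by ribosome footprints in mouse cells becoming beige fat cells. The genes were taken by symbol, with no threshold on their values, and the set was proposed with earlier results of these data known. The set holds 10 genes of 4 enzymatic steps, Gpam, Gpat3 and Gpat4, Agpat2 and Agpat3, Lpin1, Lpin2 and Lpin3, and Dgat1 and Dgat2. Each symbol had 1 row among the 55359 genes of the count table, and all 10 passed the filter on low counts that left 14714 tested genes.

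Adipocyte precursors had been isolated from a subcutaneous fat depot of mice, the inguinal white adipose tissue. They were sampled without induction (day 0) or after 4 or 8 days of beige differentiation in culture, with 3 libraries at each of the 3 stages. Cells of days 4 and 8 had received dexamethasone, 3-isobutyl-1-methylxanthine, indomethacin, insulin, 3,3′,5-triiodo-L-thyronine and rosiglitazone, and after 2 days the maintenance medium left out the first 3 of these agents. The strain, age and sex of the mice are not in the labels, and neither is whether the 3 libraries of a day came from separate animals or cultures, so the spread between them may be technical.

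Fat cells store energy as triglyceride, which they make largely by the glycerol 3-phosphate pathway. Glycerol-3-phosphate acyltransferases (GPATs) add the first fatty acid and acylglycerol-3-phosphate acyltransferases (AGPATs) the second, which gives phosphatidate. Lipins remove the phosphate to give diacylglycerol, and diacylglycerol acyltransferases (DGATs) add the last fatty acid. Each step has several isoforms from separate genes, and phosphatidate and diacylglycerol are also the starting points of membrane phospholipids.

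A footprint is the piece of mRNA that a ribosome protects from digestion. A footprint count combines the amount of an mRNA and its translation, and matched RNA levels were not analysed here. In a culture of mixed cells it also cannot be told apart whether fewer cells hold a transcript or each cell holds less of it. Levels are given in CPM, counts scaled to the size of each library after TMM correction. They are not corrected for coding length, so levels of different genes are not compared, and isoforms are compared only by how their levels changed.

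The libraries held 30823028 to 38994892 counts. Summed CPM of 6 fat cell markers ranged over 210.8 to 275 at day 0, 35566 to 55358 at day 4 and 52041 to 55263 at day 8, and the 5 of them that were tested were called higher at both later days. The sixth, Lep, was at or near 0 in every library. Summed CPM of 6 precursor markers was 2393 to 2541 at day 0, 793 to 1806 at day 4 and 522 to 716 at day 8. Macrophage markers summed to at most 93.1 CPM, endothelial markers to at most 27.0 CPM, muscle markers to at most 55.8 CPM and epithelial markers to at most 0.468 CPM in any library. At day 4 over day 0, 2 of the 6 precursor markers were called higher (Ly6a by 1.82-fold and Cd34 by 3.24-fold) and 2 lower, beside 0 of 5 macrophage and 1 of 4 endothelial markers lower, where 29.8% of all tested genes were called higher and 28.4% lower. At day 8 over day 0, 3 of 6 precursor, 2 of 5 macrophage and 3 of 4 endothelial markers were called lower and 0 higher, where 33.5% of all tested genes were called lower. Their part in the results was not tested. Day 4 replicate 2 stood apart, with 12.8 on the first principal component of all tested genes against 64.8 and 65.4 in the other day 4 libraries, and with 692 CPM of the precursor marker Pdgfra against 314 and 386. Day 8 replicate 3 stood apart less, at 62.1 against 85.5 and 85.8. Day 4 replicate 2 had the lowest day 4 level for 8 of the 10 enzymes and day 8 replicate 3 the lowest day 8 level for 7 of them. Whether unequal progress of the cultures has a part in these differences was not tested.

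The start of each gene is shown first for the enzymes on which the results turn. Windows of the 250 bases before an annotated start were taken from RefSeq (GRCm38.p6) and matched for 7 of the 10 enzymes, with 11 windows in all. Gpat4, Dgat1 and Dgat2 had no entry. Gpat3 and Agpat2 are shown because their footprints changed by the largest factors, and the 3 lipins because isoforms of 1 step behaved unlike each other. For Lpin2 and Lpin3, which have several windows, the first is shown. Sequences run 5′ to 3′ towards the start, and capitals mark matches on either strand to 4 motifs. These are AGGTCA, the core of many nuclear receptor sites, the E-box CACGTG, a sterol response element TCACNCCAC and the GC box GGGCGG.
Gpat3 chr5:100845979-100846228 plus strand: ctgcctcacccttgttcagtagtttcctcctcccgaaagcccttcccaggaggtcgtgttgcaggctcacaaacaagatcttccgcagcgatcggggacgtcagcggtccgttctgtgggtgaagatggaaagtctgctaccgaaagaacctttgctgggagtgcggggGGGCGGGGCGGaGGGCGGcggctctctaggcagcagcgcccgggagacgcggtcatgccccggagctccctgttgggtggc
Agpat2 chr2:26604418-26604667 minus strand: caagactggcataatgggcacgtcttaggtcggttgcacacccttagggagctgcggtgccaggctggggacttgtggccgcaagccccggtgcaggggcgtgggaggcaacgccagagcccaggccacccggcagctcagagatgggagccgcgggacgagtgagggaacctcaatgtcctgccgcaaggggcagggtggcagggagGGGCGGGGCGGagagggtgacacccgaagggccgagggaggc
Lpin1 chr12:16610967-16611216 minus strand: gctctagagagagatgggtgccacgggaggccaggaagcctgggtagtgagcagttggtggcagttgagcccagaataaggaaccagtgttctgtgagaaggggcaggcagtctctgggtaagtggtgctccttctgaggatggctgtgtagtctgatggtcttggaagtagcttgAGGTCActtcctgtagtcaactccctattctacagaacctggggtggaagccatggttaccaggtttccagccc
Lpin2 chr17:71183282-71183531 plus strand: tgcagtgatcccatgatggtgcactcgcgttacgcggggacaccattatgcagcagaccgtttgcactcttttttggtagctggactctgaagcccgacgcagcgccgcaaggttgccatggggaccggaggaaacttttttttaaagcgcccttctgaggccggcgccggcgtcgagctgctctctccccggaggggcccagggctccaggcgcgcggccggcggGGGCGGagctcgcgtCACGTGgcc
Lpin3 chr2:160880420-160880669 plus strand: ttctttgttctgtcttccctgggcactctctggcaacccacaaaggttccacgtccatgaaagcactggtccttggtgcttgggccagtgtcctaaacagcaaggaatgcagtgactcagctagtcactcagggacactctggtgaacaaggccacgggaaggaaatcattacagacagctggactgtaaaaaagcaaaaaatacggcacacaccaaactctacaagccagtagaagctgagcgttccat

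The Gpat3 window held 3 GC boxes, of which 2 share a base, and the Agpat2 window held 2 that share a base. The Lpin1 window held 1 AGGTCA, 68 bases from the start. The Lpin2 window held 1 E-box, 3 bases from the start, and 1 GC box, and the Lpin3 window shown held none of the 4 motifs. The second Lpin3 window, which is not shown, held 1 GC box, with 61.6% guanine and cytosine. The second Lpin2 window, also not shown, held 1 GC box (83.2% guanine and cytosine), and the third held none of the motifs (44.8%). The second Gpam window held 1 AGGTCA and 1 GC box. The first Gpam window and the Agpat3 window held none. Over 32817 windows of the same length in the reference table, 32.7% held a GC box, 14.0% AGGTCA, 6.02% the E-box and 1.05% the sterol response element. The guanine and cytosine content was 64% for Gpat3, 69.2% for Agpat2, 54.8% for Lpin1, 65.2% for Lpin2 and 49.6% for Lpin3, beside a median of 52.4% over all windows. These matches describe the letters only.

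At the first step, footprints of all 3 GPATs were higher at day 4 than at day 0, by factors that differed widely. Gpat3 rose most, Gpam rose several-fold and Gpat4 rose least. Gpam (ENSMUSG00000024978) encodes the GPAT of the outer mitochondrial membrane. It had 66.5, 68.8 and 65.6 CPM at day 0, 535, 291 and 477 CPM at day 4, and 482, 501 and 363 CPM at day 8. Every library of days 4 and 8 lay above every day 0 library, and days 4 and 8 overlapped. The log2 fold change was 2.70 ± 0.23 (SE) for day 4 over day 0, a 6.49-fold rise with edgeR adjusted p = 7.53e-06. For day 8 over day 0 it was 2.75 ± 0.23 with edgeR adjusted p = 5.63e-06.

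Gpat3 (ENSMUSG00000029314) encodes an endoplasmic reticulum GPAT that is prominent in fat cells. It had 4.57, 3.78 and 3.01 CPM at day 0, which rested on 150, 122 and 109 counts. It had 290.2, 293 and 356 CPM at day 4 and 232, 183 and 254 CPM at day 8. The 3 days did not overlap, with day 4 highest and day 8 between it and day 0. Gpat3 was 82.8-fold higher at day 4 than at day 0 (log2 6.37 ± 0.22, edgeR adjusted p = 6.02e-08) and 58.9-fold higher at day 8 than at day 0 (log2 5.88 ± 0.21, edgeR adjusted p = 9.06e-08). In the reference gene table Gpat3 overlaps Abraxas1, and the strand setting of the counting is not given in the sources used here. Abraxas1 had 236 to 261 counts per library at day 0, more than Gpat3 itself, and at most 7.29% of the Gpat3 count at day 4 and 14.9% at day 8.

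Gpat4 (ENSMUSG00000031545), the other GPAT of the endoplasmic reticulum, rose least of the 3. It had 54.9, 34.4 and 39.4 CPM at day 0, 98.9, 59.3 and 79.4 CPM at day 4, and 61.5, 56.3 and 43.7 CPM at day 8. Day 4 lay above day 0 without overlap, and day 8 overlapped both. Gpat4 was 1.85-fold higher at day 4 than at day 0 (log2 0.88 ± 0.22, edgeR adjusted p = 0.00694). The value for day 8 over day 0 was 0.33 ± 0.22 on the log2 scale and did not pass (edgeR adjusted p = 0.216).

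At the second step, both AGPATs rose strongly. Agpat2 (ENSMUSG00000026922), whose loss causes a congenital generalised lipodystrophy in people, had 8.19, 8.79 and 8.53 CPM at day 0. It had 1226, 447 and 989 CPM at day 4 and 1178, 942 and 913 CPM at day 8. Days 4 and 8 overlapped each other and lay far above day 0, where the 3 libraries were close together. The rise was 104-fold at day 4 over day 0 (log2 6.70 ± 0.38, edgeR adjusted p = 7.66e-07) and 119-fold at day 8 over day 0 (log2 6.89 ± 0.39, edgeR adjusted p = 7.24e-07), the largest of the 10 enzymes in both comparisons. Over all tested genes, 99.0% had a smaller change at day 4 over day 0 in either direction.

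Agpat3 (ENSMUSG00000001211), an isoform of the endoplasmic reticulum and Golgi, had 32.4, 25.5 and 25.9 CPM at day 0. It had 433, 277 and 457 CPM at day 4 and 369, 371 and 302 CPM at day 8. Its days 4 and 8 also overlapped each other and lay above day 0. Agpat3 was 13.9-fold higher at day 4 than at day 0 (log2 3.80 ± 0.21, edgeR adjusted p = 7.46e-07) and 12.4-fold higher at day 8 than at day 0 (log2 3.64 ± 0.21, edgeR adjusted p = 9.2e-07).

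At the third step, 1 of the 3 lipins rose. Lpin1 (ENSMUSG00000020593) encodes the main lipin of fat tissue, and mice that lack it have lipodystrophy. It had 41.8, 38.6 and 49.5 CPM at day 0, 1112, 499.5 and 981 CPM at day 4, and 997, 1127 and 855 CPM at day 8. Every later library stood above day 0, and days 4 and 8 overlapped. The log2 fold change was 4.32 ± 0.30 at day 4 over day 0 (edgeR adjusted p = 2.28e-06) and 4.52 ± 0.30 at day 8 over day 0 (edgeR adjusted p = 1.72e-06). Ntsr2 overlaps Lpin1 in the reference gene table and had at most 1.29% of the Lpin1 count in any library.

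Lpin2 (ENSMUSG00000024052), which in people is mutated in an inflammatory bone disease, did not rise. It had 11.5, 11.5 and 11.3 CPM at day 0, 10.1, 6.44 and 8.09 CPM at day 4, and 9.10, 8.39 and 8.79 CPM at day 8. Days 4 and 8 each lay below day 0 without overlap. It fell by 0.48 ± 0.16 on the log2 scale at day 4 over day 0 (edgeR adjusted p = 0.0263), and the call was lost in 8 of 18 alternative settings, among them without day 4 replicate 2 (log2 -0.33, edgeR adjusted p = 0.0530). For day 8 over day 0 the log2 value was -0.39 ± 0.16 and did not pass (edgeR adjusted p = 0.0542), while 7 of 18 alternatives called it.

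Lpin3 (ENSMUSG00000027412), the third lipin, had 6.58, 8.33 and 7.04 CPM at day 0, 6.08, 9.0 and 8.29 CPM at day 4, and 7.54, 6.50 and 8.12 CPM at day 8. All 3 days overlapped. The log2 value was 0.09 ± 0.18 for day 4 over day 0 (edgeR adjusted p = 0.685) and 0.01 ± 0.18 for day 8 over day 0 (edgeR adjusted p = 0.949), and its sign turned with the scaling.

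At the last step, both DGATs rose. They are unrelated in sequence: DGAT1 belongs to a family of membrane-bound O-acyltransferases, and DGAT2 can act at the surface of lipid droplets. Dgat1 (ENSMUSG00000022555) had 25.6, 22.9 and 25.4 CPM at day 0, 654, 387 and 647 CPM at day 4, and 508, 510.3 and 470.4 CPM at day 8. Dgat2 (ENSMUSG00000030747) had 2.89, 4.80 and 2.57 CPM at day 0, 219, 114 and 223 CPM at day 4, and 145, 122 and 115 CPM at day 8. For both genes, days 4 and 8 overlapped each other and lay above day 0. Dgat1 was 22.8-fold higher at day 4 than at day 0 (log2 4.51 ± 0.21, edgeR adjusted p = 3.02e-07) and 20.1-fold higher at day 8 than at day 0 (log2 4.33 ± 0.21, edgeR adjusted p = 4.07e-07). Dgat2 was 54.2-fold higher at day 4 than at day 0 (log2 5.76 ± 0.34, edgeR adjusted p = 8.81e-07) and 37.3-fold higher at day 8 than at day 0 (log2 5.22 ± 0.33, edgeR adjusted p = 1.36e-06).

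**Figure D1:**
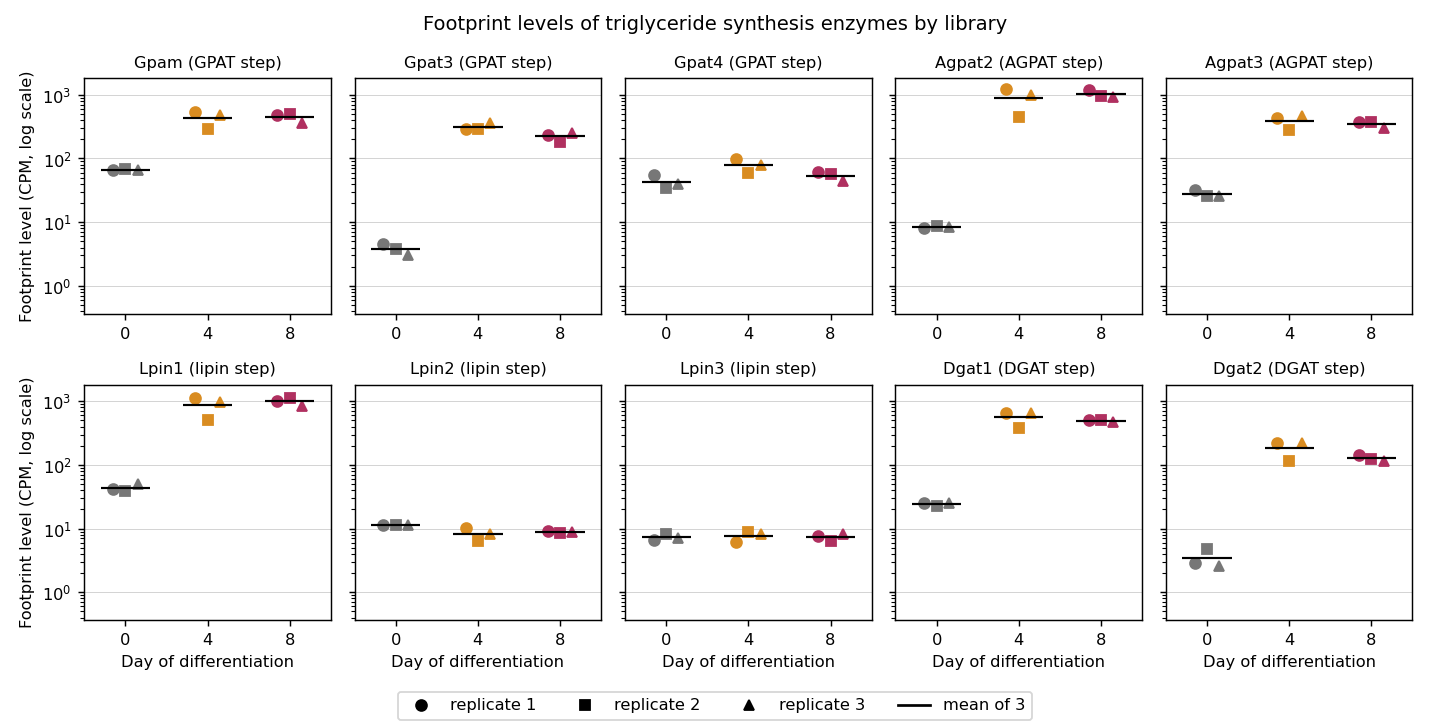
Footprint level of each enzyme (CPM, log axis) by day of differentiation, with a point for each of the 9 libraries and a bar for the mean of each day. Gpat3, Agpat2, Lpin1, Dgat1 and Dgat2 stand far above their day 0 libraries at days 4 and 8, whereas Lpin2 and Lpin3 lie between 6.08 and 11.5 CPM in all libraries.

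Counted together, 8 of the 10 enzymes were called higher at day 4 than at day 0, 1 lower (Lpin2) and 1 neither way (Lpin3). Of all tested genes 58.2% were called in that comparison, 29.8% higher and 28.4% lower. The median log2 fold change was 4.06 over the 10 enzymes and -0.02 over all tested genes. At day 8 over day 0, 7 enzymes were called higher, 0 lower and 3 (Gpat4, Lpin2 and Lpin3) neither way, beside 67.7% of all tested genes called, 34.2% higher and 33.5% lower. The medians were 3.98 over the 10 enzymes and -0.01 over all tested genes. These 2 comparisons use the same day 0 libraries and are not independent. Without both libraries that stood apart, 8 enzymes were called higher and 0 lower at day 4 over day 0. At day 8 over day 0 that fit called 8 enzymes higher and 1 lower. Of its 15012 tested genes it called 10001 at day 4 over day 0 and 10638 at day 8 over day 0, in either direction. At each of the 4 steps at least 1 isoform was called higher at both days.

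Between days 8 and 4, few of the enzymes were called. At day 8 over day 4, 0 enzymes were called higher and 1 lower (Gpat3), beside 31.8% of all tested genes called, 14.7% higher and 17.1% lower. The median log2 fold change was -0.12 over the 10 enzymes and -0.02 over all tested genes. Gpat3 averaged 223 ± 36.3 CPM at day 8 and 313 ± 37.0 CPM at day 4 (SD, n = 3 each), a log2 fold change of -0.49 ± 0.17 with edgeR adjusted p = 0.0496. That call was lost in 10 of 18 alternatives, including scaling by library totals (log2 -0.35, edgeR adjusted p = 0.136). Gpat4 at -0.56 ± 0.22 (edgeR adjusted p = 0.0823) and Dgat2 at -0.54 ± 0.27 (edgeR adjusted p = 0.154) did not pass. Agpat2 averaged 1011 ± 146 CPM at day 8 and 887 ± 399.5 CPM at day 4 (SD, n = 3 each), and its log2 value of 0.19 ± 0.30 did not pass (edgeR adjusted p = 0.66). Day 4 replicate 2 weighed on this comparison: without it 4 enzymes were called lower at day 8 than at day 4, namely Gpat3, Gpat4 (log2 -0.73), Dgat1 (log2 -0.39) and Dgat2 (log2 -0.79). The fit without that library called 4607 of 15075 tested genes in this comparison, 47.0% of them higher.

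**Figure D2:**
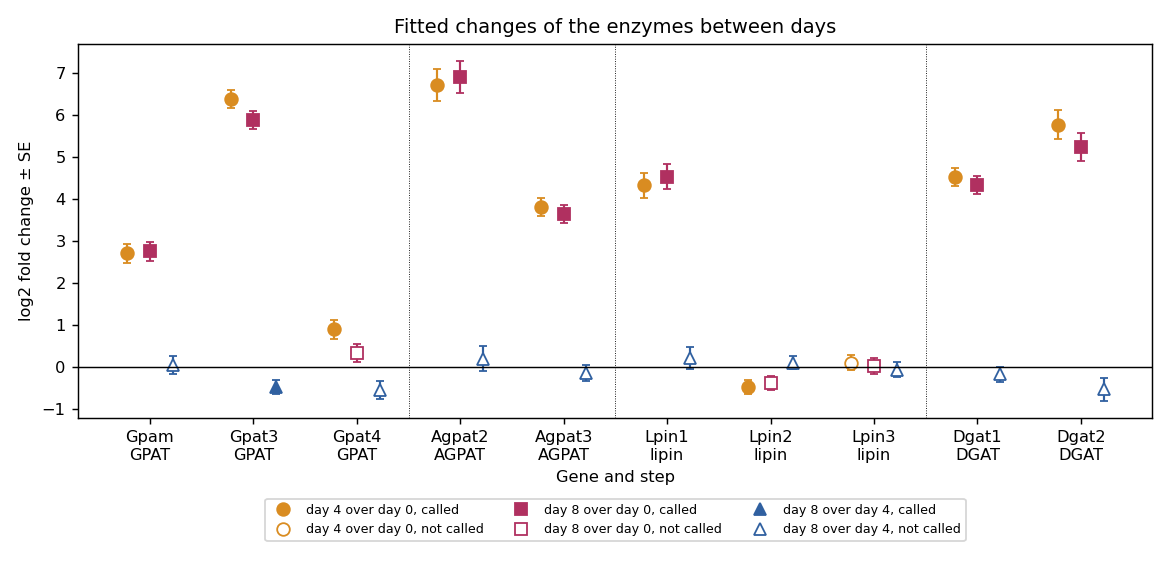
Log2 fold change of each enzyme with its standard error from the edgeR fit, for day 4 over day 0, day 8 over day 0 and day 8 over day 4, where filled symbols mark changes called at adjusted p under 0.05. The changes against day 0 spread between -0.48 for Lpin2 and 6.89 for Agpat2, and those of day 8 over day 4 lie between -0.56 and 0.20.

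Whether isoforms of a step changed by unequal factors was tested with the log2 ratio of their counts within each library, which does not depend on library scaling. The 8 ratios within steps were compared over the 3 days by an exact permutation test of the 9 libraries, two-sided, with a smallest possible p of 0.00357 and Benjamini-Hochberg adjustment over the 8. The test asks whether the days differ at all, so each p belongs to the 3 days together and not to any single fold change. Of the 8 ratios, 7 passed, and Lpin2 over Lpin3 did not. Ratios that share a gene, within the GPATs and within the lipins, are not independent of each other. How often ratios of other tested genes would pass was not examined.

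Within the GPAT step, the balance moved towards Gpat3. The log2 ratio of Gpat3 to Gpam was -3.86, -4.18 and -4.44 at day 0, -0.88, 0.01 and -0.42 at day 4, and -1.06, -1.46 and -0.52 at day 8. Its day 0 values lay below all others (exact permutation adjusted p = 0.0143), and the mean ratio was 13.3-fold higher at day 4 than at day 0 and 8.87-fold higher at day 8 than at day 0. The ratio of Gpat3 to Gpat4 was 45.2-fold higher at day 4 and 46.5-fold higher at day 8 than at day 0 (exact permutation adjusted p = 0.0408). The log2 ratio of Gpam to Gpat4 was 0.28, 1.00 and 0.73 at day 0, 2.44, 2.29 and 2.59 at day 4, and 2.97, 3.15 and 3.05 at day 8. These 3 days did not overlap, and the ratio stepped up by 3.41-fold at day 4 over day 0 and by 1.54-fold at day 8 over day 4 (exact permutation adjusted p = 0.0143 over the 3 days).

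Within the AGPAT step, the log2 ratio of Agpat2 to Agpat3 was -1.98, -1.54 and -1.60 at day 0, 1.5, 0.69 and 1.11 at day 4, and 1.67, 1.34 and 1.59 at day 8. Every library of days 4 and 8 lay above every day 0 library, and days 4 and 8 overlapped. The ratio was 7.01-fold higher at day 4 than at day 0 and 9.47-fold higher at day 8 than at day 0 (exact permutation adjusted p = 0.0143).

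Within the lipin step, Lpin1 pulled away from both relatives. Its log2 ratio to Lpin2 was 1.85, 1.75 and 2.12 at day 0, 6.78, 6.27 and 6.92 at day 4, and 6.77, 7.07 and 6.60 at day 8. The day 0 libraries lay below all later ones (exact permutation adjusted p = 0.0333 over the 3 days). The ratio was 26.9-fold higher at day 4 than at day 0. The ratio of Lpin1 to Lpin3 was 18.0-fold higher at day 4 and 22.7-fold higher at day 8 than at day 0 (exact permutation adjusted p = 0.0333). The log2 ratio of Lpin2 to Lpin3 was 0.81, 0.46 and 0.69 at day 0, 0.73, -0.48 and -0.03 at day 4, and 0.27, 0.37 and 0.11 at day 8. Its days 4 and 0 overlapped, and the ratio did not pass the test over the 3 days (exact permutation adjusted p = 0.239). Without day 4 replicate 1 it passed (exact permutation adjusted p = 0.00952), and the change of the log2 ratio at day 4 over day 0 was -0.91, against -0.58 with all libraries.

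Within the DGAT step, the log2 ratio of Dgat2 to Dgat1 was -3.14, -2.25 and -3.30 at day 0, -1.58, -1.76 and -1.54 at day 4, and -1.81, -2.06 and -2.03 at day 8. The 3 days did not overlap, with day 4 highest. The ratio was 2.41-fold higher at day 4 than at day 0 and 1.91-fold higher at day 8 than at day 0 (exact permutation adjusted p = 0.0143), and without both libraries that stood apart the adjusted p was 0.12.

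**Figure D3:**
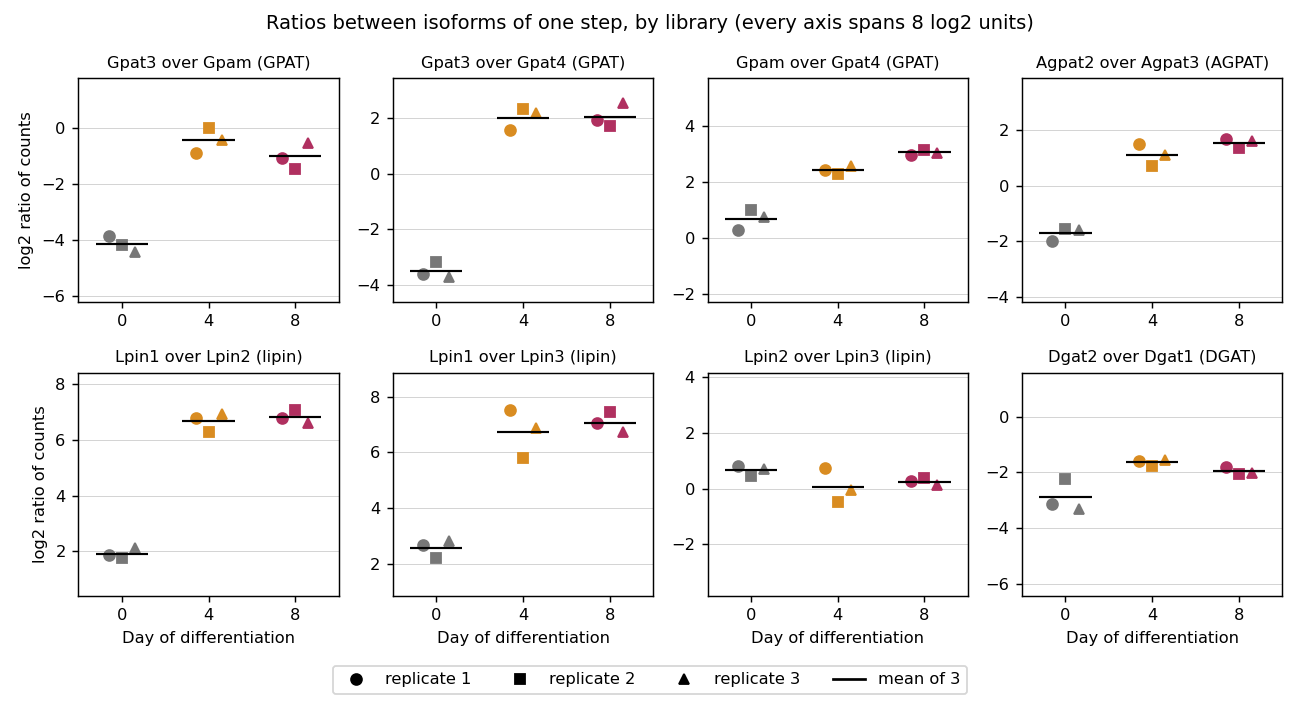
Log2 ratio of the footprint counts of 2 isoforms of the same step, for 8 pairs, with a point for each library and a bar for the mean of each of days 0, 4 and 8. The ratio of Agpat2 to Agpat3 lies higher in every later library than in any day 0 library, and the ratio of Lpin2 to Lpin3 overlaps between days 4 and 0.

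Glycerol 3-phosphate is the backbone of the pathway, and 4 genes of its metabolism were followed, Gpd1, Gpd1l, Gpd2 and Gk. All 4 were called higher at days 4 and 8 than at day 0. They are listed as its supply, but Gpd2, the mitochondrial dehydrogenase, uses up glycerol 3-phosphate. Over all tested genes, 29.8% were called higher at day 4 and 34.2% at day 8, each over day 0. Gpd1, the cytosolic glycerol-3-phosphate dehydrogenase, had 12.8, 16 and 13.8 CPM at day 0, 4665, 3531 and 5804 CPM at day 4, and 3464, 2891 and 2284 CPM at day 8. Its 3 days did not overlap, with day 4 highest. The log2 fold change was 8.36 ± 0.30 for day 4 over day 0, 7.66 ± 0.29 for day 8 over day 0, and -0.70 ± 0.22 for day 8 over day 4 (edgeR adjusted p = 0.0371 for the last, a call lost in 10 of 18 alternatives). Gk, the glycerol kinase that phosphorylates free glycerol, rose by 3.90 ± 0.26 at day 4 over day 0 and by 3.28 ± 0.26 at day 8 over day 0 on the log2 scale. Between days 8 and 4, Gpd1 was the 1 gene of the 4 that was called, beside 31.8% of all tested genes. Gpd2 was not called, but moved the other way without overlap. It had 91.7 to 219 CPM at day 4 and 241 to 326 CPM at day 8. In some alternatives, among them the DESeq2 test and limma-voom, 1 of the 4 was called higher at day 8 than at day 4.

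Of 12 other acyltransferases, 8 were tested. At day 4 over day 0, 4 of these were called higher and 3 lower, and at day 8 over day 0 also 4 higher and 3 lower, with medians of 0.36 and 0.52. Of all tested genes 29.8% were called higher and 28.4% lower at day 4, and 34.2% higher and 33.5% lower at day 8, over day 0. Lpgat1, a lysophospholipid acyltransferase, rose by 1.59 ± 0.14 on the log2 scale at day 4 over day 0 (edgeR adjusted p = 1.04e-05), and Agpat5 rose by 1.14 ± 0.11 (edgeR adjusted p = 2.19e-05). Lclat1, an acyltransferase of cardiolipin and other phospholipids, fell by 1.09 ± 0.11 (edgeR adjusted p = 2.01e-05). Agpat4 fell by 0.59 ± 0.19 at day 4 over day 0 (edgeR adjusted p = 0.0228) and by 1.25 ± 0.19 at day 8 over day 0 (edgeR adjusted p = 0.000281). The first of these calls was lost in 4 of 18 alternatives and the second in 0. The AGPAT family thus held members called in both directions.

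Mogat1, which makes diacylglycerol from monoacylglycerol and so bypasses the first 3 steps, had 0.0305, 0.0619 and 0.0276 CPM at day 0. It had 1.86, 0.413 and 1.72 CPM at day 4 and 5.64, 2.73 and 4.37 CPM at day 8. Its levels were low throughout, with 4 counts in all at day 0, and the 3 days did not overlap. It was called higher at day 8 than at day 4 by 1.67 ± 0.47 on the log2 scale (edgeR adjusted p = 0.0243), whereas 0 of the 10 enzymes was. Without day 8 replicate 1 that value was 1.41 (edgeR adjusted p = 0.0935).

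Other genes of the routes around phosphatidate and diacylglycerol included genes called in both directions. The list holds lipid phosphate phosphatases, diacylglycerol kinases and genes of phospholipid synthesis. Of 20 such genes 17 were tested, and 7 were called higher and 6 lower at day 4 over day 0, and 5 higher and 6 lower at day 8 over day 0, with medians of 0.21 and 0.15. At day 8 over day 0 these shares lie near those of all tested genes, of which 34.2% were higher and 33.5% lower. At day 4 over day 0, 29.8% of all tested genes were higher and 28.4% lower. Whether the list differs from all tested genes was not tested. Chpt1, which makes phosphatidylcholine from diacylglycerol, rose by 3.03 ± 0.22 on the log2 scale at day 4 over day 0 (edgeR adjusted p = 3.2e-06). Pcyt2, of the phosphatidylethanolamine route, rose by 1.80 ± 0.18 (edgeR adjusted p = 1.99e-05). Among diacylglycerol kinases, which return diacylglycerol to phosphatidate, Dgkh fell by 1.57 ± 0.23 at day 4 over day 0 (edgeR adjusted p = 0.00029), and Dgkd rose by 2.23 ± 0.20 at day 8 over day 0 (edgeR adjusted p = 1.07e-05). Plpp1, a lipid phosphate phosphatase, fell by 1.78 ± 0.31 at day 8 over day 0 (edgeR adjusted p = 0.000559), and for day 4 over day 0 its value of -0.65 did not pass (edgeR adjusted p = 0.0856). Plpp1 had 304 CPM in day 4 replicate 2 against 128 and 146 CPM in the other day 4 libraries.

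Of 7 partners and regulators of the enzymes, 6 had a row and were tested. Of these 4 were called higher and 1 lower at day 4 over day 0, and 4 higher and 0 lower at day 8 over day 0, beside 29.8% higher and 28.4% lower at day 4 and 34.2% higher and 33.5% lower at day 8 over all tested genes. Bscl2, which encodes seipin of the endoplasmic reticulum sites where lipid droplets form, rose by 2.91 ± 0.22 on the log2 scale at day 4 over day 0 and by 2.91 ± 0.22 at day 8 over day 0. Mlxipl, the carbohydrate response factor ChREBP, rose by 7.73 ± 0.37 at day 4 over day 0 (edgeR adjusted p = 3.02e-07) and had 0.213, 0.217 and 0.304 CPM at day 0. Srebf1, the sterol regulatory factor that is known to drive Gpam, had 131, 133 and 149 CPM at day 0, 969.6, 741 and 1079.8 CPM at day 4, and 549, 560.1 and 442 CPM at day 8. Its 3 days did not overlap, and it was lower at day 8 than at day 4 (log2 -0.85 ± 0.16, edgeR adjusted p = 0.00451), whereas Gpam at 0.05 ± 0.21 did not pass (edgeR adjusted p = 0.883). Whether these 2 changes differ was not tested.

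**Figure D4:**
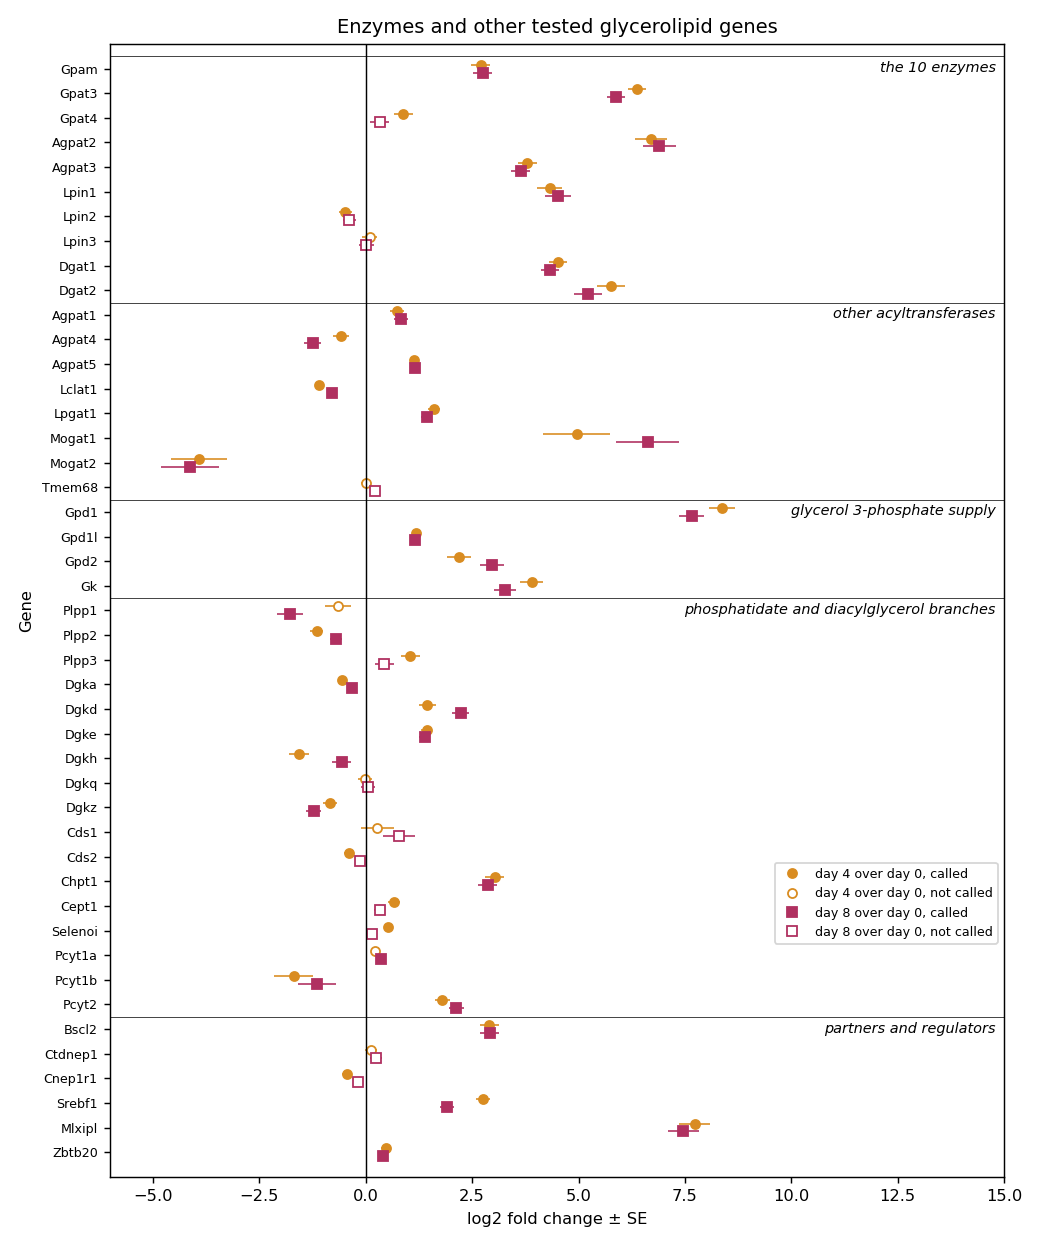
Log2 fold change with its standard error for the 10 enzymes and the tested genes of 4 other lists, at day 4 over day 0 (circles) and day 8 over day 0 (squares), with open symbols for changes that were not called. All 4 genes listed as glycerol 3-phosphate supply (Gpd2 among them, which uses it up) lie right of 0. Other acyltransferases and genes of the phosphatidate and diacylglycerol branches lie on both sides.

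For each enzyme, the genes with the most similar pattern were found by the root mean square difference of centred log2 CPM over 9 libraries. The 10449 candidates averaged 100 counts or more per library. Pseudogenes and genes with only a predicted, RIKEN or Ensembl name were left out. For Gpam the nearest was Endog at 0.0691, and for Gpat3 they were Plin4 at 0.322 and Pnpla2 at 0.334. Plin4 coats lipid droplets and Pnpla2 is the first lipase of triglyceride breakdown. For Agpat2 the nearest was Lipe, the hormone-sensitive lipase, at 0.181, and for Agpat3 it was Uqcrfs1, a subunit of respiratory complex III, at 0.124. Lpin1 lay nearest to Pdhb, a subunit of pyruvate dehydrogenase, at 0.154. Dgat1 lay nearest to Adipor2, an adiponectin receptor, at 0.0944, and Dgat2 to Cmbl at 0.309. Gpat4, Lpin2 and Lpin3, with the smallest changes against day 0, lay nearest to B3gat3 at 0.157, Snapc2 at 0.0959 and Rpl34 at 0.0726. The median difference over all candidates was between 0.451 for Lpin3 and 3.20 for Agpat2. These distances have no test, and enzymes with large changes have few genes of the same size of change near them.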

How the data were processed

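The authors deposited raw counts of ribosome footprints, 1 column for each of the 9 libraries and 1 row per Ensembl gene. Per the labels' protocols, lysates held cycloheximide and were digested with RNase I, and ribosomal RNA was removed. Per the submitters' processing notes, cutadapt, HISAT2, featureCounts and GRCm39 were used. Tool versions, strandedness, which feature was counted and how multi-mapped reads were treated: not given in the sources used here. Libraries were grouped by the day in their titles.

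A filterByExpr filter (minimum count 10) kept 14714 of 55359 genes, holding at least 99.95% of each library's counts. They were tested with edgeR 4.0.16 (TMM, glmQLFit and glmQLFTest) in R 4.3.3 on all 9 libraries with day as the factor. Benjamini-Hochberg adjustment ran over all tested genes, and genes were called at adjusted p under 0.05. The standard error was taken from the fold change and its F statistic. CPM used TMM-scaled library sizes. Isoform ratios used log2 of counts with 0.5 added, and an exact permutation of 1680 arrangements. The scripts were tested on simulated data. There the limit on unchanged genes called was applied to edgeR only, since DESeq2, used only as an alternative, called more of them. Alternatives used DESeq2 1.42.0, limma 3.58.1 and other scalings, filters and sets of libraries.

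The enzymes and all gene lists were chosen with earlier results of these data known. The text names the 10 enzymes. From each other list and comparison, it draws on the 2 largest rises and falls among called genes whose days did not overlap and whose higher day averaged 100 counts or more, and on the 2 genes nearest to each enzyme. Reads carry no molecular identifiers in the files used, so errors between libraries are the measure of precision. Deviations from the day mean correlated at -0.20 to 0.19 between same-numbered libraries of different days, and at -0.30 to 0.31 between others. Of 9 same-numbered pairs 2 were above 0.1, and 5 of 9 libraries correlated best with a library of their own number. These values do not settle whether the numbers pair the libraries, and the main tests did not use them. No 2 libraries of a day agreed within sampling noise. Ldaf1 had no row under that name.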

Additional observations from a re-analysis of the deposited data

How the results depend on the processing

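The calls of the 8 enzymes that were higher at day 4 than at day 0, and of the 7 at day 8 over day 0, kept their direction and passed in all 18 alternatives. The weak calls did not. The fall of Gpat3 at day 8 over day 4 did not pass with DESeq2 size factors (log2 -0.49), library totals (-0.35), upper quartile factors (-0.47), only the 2 days compared (-0.48) or the replicate block (-0.50, adjusted p = 0.0678), and was between -0.64 and -0.37 when single libraries or both that stood apart were left out. Lpin2 at day 4 over day 0 did not pass with no filter (-0.46), only the 2 days (-0.45) or without both libraries that stood apart (-0.33), and ranged over -0.65 to -0.33 without single libraries. Lpin2 at day 8 over day 0 passed with library totals (-0.40), upper quartile factors (-0.49), limma-voom (-0.39), only the 2 days (-0.38) and without both libraries (-0.38), and ranged over -0.40 to -0.34 without single libraries. Gpat4 at day 8 over day 4 passed with no filter (-0.56), the replicate block (-0.54, adjusted p = 0.0389) and without both libraries (-0.60), and ranged over -0.73 to -0.37 without single libraries. Without both libraries Gpat4 at day 8 over day 0 (0.46, with 0.19 to 0.55 without single libraries), and Dgat1 (-0.35) and Dgat2 (-0.73) at day 8 over day 4, also passed. Without single libraries Dgat1 ranged over -0.39 to -0.058 and Dgat2 over -0.79 to -0.39. The cause of these differences was not tested.

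Uncalled values near 0 turned sign. At day 8 over day 4, Gpam (-0.042), Agpat2 (-0.064) and Lpin2 (-0.056) did so without both libraries. Without single libraries Gpam ranged over -0.17 to 0.23 (turned at -0.17, -0.013 and -0.042), Agpat2 over -0.13 to 0.49, Lpin1 over -0.077 to 0.42, Lpin2 over -0.055 to 0.27 and Lpin3 over -0.23 to 0.038. Lpin3 turned at day 4 over day 0 with library totals (-0.063), upper quartile factors (-0.037) and without both libraries (-0.0195), at day 8 over day 0 with upper quartile factors (-0.095) and without both (-0.055), and at day 8 over day 4 with totals (0.063). Without single libraries it ranged over -0.021 to 0.24 at day 4 and -0.050 to 0.11 at day 8 over day 0.

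The number of enzymes called lower at day 4 over day 0 was 0 with no filter, with only the 2 days and without both libraries, and 0 to 1 without single libraries. At day 8 over day 0 it was 1 with totals, upper quartile factors, limma-voom, the 2 days and without both, and 0 to 1 without single libraries. At day 8 over day 4 it was 0 with DESeq2 size factors, totals, upper quartile factors and the 2 days, 2 with no filter, 4 without both, and 0 to 4 without single libraries. In that comparison glycerol 3-phosphate supply had 2 calls with upper quartile factors, limma-voom and without both, 3 with no filter and the DESeq2 test, 0 with the 2 days and the replicate block, and 0 to 2 without single libraries. Other acyltransferases had 0 with the 2 days, 1 with the replicate block and 1 to 3 without single libraries, the branches 3 with the 2 days and 1 to 7 without single libraries, and partners 2 with totals. All tested genes called at day 8 over day 4 numbered 2706 to 5481 without single libraries or both (2706 without day 8 replicate 1, 2760 without day 8 replicate 2, 4676 with all).

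Library totals moved the median of all tested genes to -0.17 at day 4 over day 0 and to 0.12 at day 8 over day 4, where 65.9% of called genes were higher against 46.2% with TMM. Upper quartile factors moved it to -0.14 at day 4 and -0.11 at day 8 over day 0. Permuting days within replicate numbers (replicate block, 216 arrangements) left the ratio changes at 3.73 and 3.15 (Gpat3 to Gpam), 5.50 and 5.54 (Gpat3 to Gpat4), 1.77 and 2.39 (Gpam to Gpat4), 2.81 and 3.24 (Agpat2 to Agpat3), 4.75 and 4.90 (Lpin1 to Lpin2), 4.17 and 4.5 (Lpin1 to Lpin3), and 1.27 and 0.93 (Dgat2 to Dgat1) for days 4 and 8 over day 0. None of the 7 then passed (adjusted p 0.0556 or 0.127), with the smallest p possible for 1 ratio at 0.0278. The ratio of Dgat2 to Dgat1 did not pass without both libraries (1.34 and 0.96) and ranged over 1.07 to 1.59 and 0.73 to 1.25 without single libraries. That of Lpin2 to Lpin3 passed without day 4 replicate 1, and ranged over -0.91 to -0.30 at day 4 and -0.50 to -0.32 at day 8 over day 0 without single libraries.

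The footprint density per coding length was not run, since no coding lengths were used here. Depth limits few of the enzymes: the lowest count of any enzyme in a library was 93.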

Other observations

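Awat1, an acyl-CoA wax alcohol acyltransferase related to Dgat2 and too low to be tested, was chosen here after its values were seen. It had 0, 0 and 1 counts at day 0, 30, 9 and 42 counts at day 4, and 0 counts in each day 8 library. Footprints of this gene were thus counted in all 3 day 4 libraries and in 1 of the other 6.

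Mogat2, the intestinal relative of Mogat1, was also chosen after its values were seen. It had 35, 58 and 26 counts at day 0, 3, 4 and 1 at day 4, and 0, 3 and 4 at day 8. It had a log2 fold change of -3.92 ± 0.67 at day 4 over day 0 and of -4.14 ± 0.68 at day 8 over day 0, with sign opposite to that of Mogat1.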
